A study of Danio rerio with 3 samples.

Results

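The antigen presentation genes mhc1uba, b2m, cd74a and cd74b were followed in single cells of the adult zebrafish heart before injury and 3 and 7 days after it. They are 4 of the 26320 genes in the expression table and were chosen by name, with their levels in the same comparisons already known, so the values below describe them and carry no test. A class I major histocompatibility complex (MHC) molecule shows peptides made inside a cell to cytotoxic T cells. It consists of a polymorphic heavy chain, here mhc1uba, and the invariant light chain beta-2 microglobulin, here b2m. Class II molecules show peptides of engulfed material to helper T cells and are carried mainly by professional antigen-presenting cells. The invariant chain CD74, which zebrafish encode as cd74a and cd74b, occupies the class II groove during assembly, and in mammals CD74 is also a receptor for the cytokine MIF. Endothelial cells of mammals carry class I constitutively and can be induced by interferon gamma to carry class II. No sequence of the 4 genes is shown.

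The 3 libraries came from hearts of fish labelled as strain AB: uninjured adults (day 0), adults 3 days post injury (day 3) and adults 7 days post injury (day 7). Each library pooled the cells of 6 other hearts, from 3 males and 3 females aged about 5 to 12 months, digested in 2 sets of 3. The labels describe injury by 5 mM metronidazole for 48 hours in 0.1% DMSO, in fish whose ventricular myosin promoter (vmhc) drives a bacterial nitroreductase in ventricular cardiomyocytes, and they list wild-type and heat-shock transgenic fish as well without saying which line these libraries used. They list no drug for day 0, and they do not give the MHC genotypes of the fish. With 1 library per day, day, drug, library and the genotypes of the pooled fish cannot be told apart.

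The table held 272 cells at day 0, 114 at day 3 and 368 at day 7, with 857410, 493660 and 1355246 UMIs (unique molecular identifiers, each 1 captured transcript). Median UMIs per cell were 2677, 3260.5 and 3124.5. The libraries shared 1 cell barcode. Levels are given as UMIs per 1000000 UMIs of the group (CPM) with a 95% Poisson interval, folds as ratios of CPM with an exact 95% interval, and log2 ratios with 10 CPM added to both sides. A level from 3' tags is not corrected for gene length, so levels are compared between groups of cells and not between genes. All intervals cover counting error only, since no day was repeated, and they treat UMIs as independent.

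The deposited clusters were numbered 0 to 6. Clusters 0, 2, 3 and 6 were called endothelial-like from their marker genes, cluster 1 mural-like (contractile cells of vessel walls), cluster 4 fibroblast-like and cluster 5 cardiomyocyte-like. For clusters 0 and 3 the name rests on marker sums, as the 10 leading genes of either held no marker of any class. In clusters 0 and 2 the summed cardiomyocyte markers, at 10188 and 15744 CPM, exceeded the endothelial sums of 4243 and 6450 CPM, against 115281 CPM of cardiomyocyte markers in cluster 5. The endothelial-like class had 166 cells at day 0, 113 at day 3 and 224 at day 7. Different clusters filled it on each day: clusters 0 and 2 held 72 and 86 of the day 0 cells, clusters 3 and 6 held 60 and 34 of the day 3 cells, and cluster 0 held 193 of the day 7 cells. Its summed cardiomyocyte markers were 16658, 1200 and 8464 CPM on the 3 days. Taking them out of the total left the day 3 and day 7 log2 ratios of all 4 genes on the same side of 0, as the plot of the ratios under each setting shows. Other markers also differed between the days in this class, here as UMIs not scaled to its totals. Those totals differed between the days, so the counts alone do not give the direction of a change in level. Of the epicardial markers, krt15 had 241, 1206 and 166 UMIs and krt94 848, 652 and 895. Of the mural markers, acta2 had 44, 212 and 143, rgs5a 3, 67 and 36 and myh11a 9, 9 and 8. Of the fibroblast markers, col1a1a had 79, 98 and 430, postnb 0, 2 and 48 and pdgfra 9, 4 and 12. Of the endothelial markers, aqp8a.1 had 2214, 766 and 1336 and vwf 402, 599 and 193. The cells compared between days were thus not alike in these markers.

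The class I heavy chain gene mhc1uba was found in most endothelial-like cells of the uninjured heart and in few after injury. In endothelial-like cells its level was 399 CPM at day 0 (346 to 457, 203 UMIs), 26.6 CPM at day 3 (14.1 to 45.4, 13 UMIs) and 39.7 CPM at day 7 (27.3 to 55.8, 33 UMIs). The day 0 interval lay above both others, and the day 3 and day 7 intervals overlapped. The level was 15.0-fold lower at day 3 (8.58 to 28.7) and 10.0-fold lower at day 7 (6.93 to 15.0) than at day 0. The log2 ratios of −3.48 and −3.04 placed it 28th from the lowest of 2565 and of 3012 measured genes, where measured means at least 20 UMIs over both days.

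This difference was spread over many cells. At day 0, mhc1uba had a UMI in 102 of 166 endothelial-like cells (61.4%, interval 53.6 to 68.9), at day 3 in 7 of 113 (6.19%, 2.53 to 12.3) and at day 7 in 18 of 224 (8.04%, 4.83 to 12.4). With every cell thinned to 2000 UMIs the shares were 47.0%, 3.54% and 6.70%. The richest cell held 10 of the 320 mhc1uba UMIs of the whole table, 3.13%, and without the richest cell of each day the log2 ratios were −3.78 and −3.09. Within cluster 0, the only endothelial-like cluster with many cells at both day 0 and day 7, the level was 354 CPM at day 0 (275 to 448) and 46.4 CPM at day 7 (31.7 to 65.4). Cluster 2, almost wholly of day 0, had 418 CPM (346 to 500) on that day, and its ratio to cluster 0 of 1.18 had an interval that included 1 (0.870 to 1.61).

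Outside the endothelium only day 7 could be compared with day 0, as day 3 had 0 mural-like and 0 cardiomyocyte-like cells. In mural-like cells mhc1uba was again lower at day 7. In mural-like cells mhc1uba was at 189 CPM at day 0 (143 to 245, 57 UMIs) and 14.2 CPM at day 7 (2.92 to 41.4, 3 UMIs), 13.4-fold lower (4.36 to 66.8). The share of mural-like cells with a UMI was 38.6% (34 of 88) and 3.28% (2 of 61). Cardiomyocyte-like cells had 127 CPM at day 0 (6 UMIs in 18 cells) and 38.9 CPM at day 7 (4 UMIs in 30 cells), and the interval of that 3.26-fold difference included 1 (0.774 to 15.7). The fibroblast-like cells, which were found almost only at day 7, had 1 UMI in 53 cells. At day 0 the order was thus endothelial-like, mural-like and cardiomyocyte-like, with the endothelial level 2.1-fold above the mural one (1.56 to 2.87), and the mural and cardiomyocyte intervals overlapped.

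**Figure D1:**
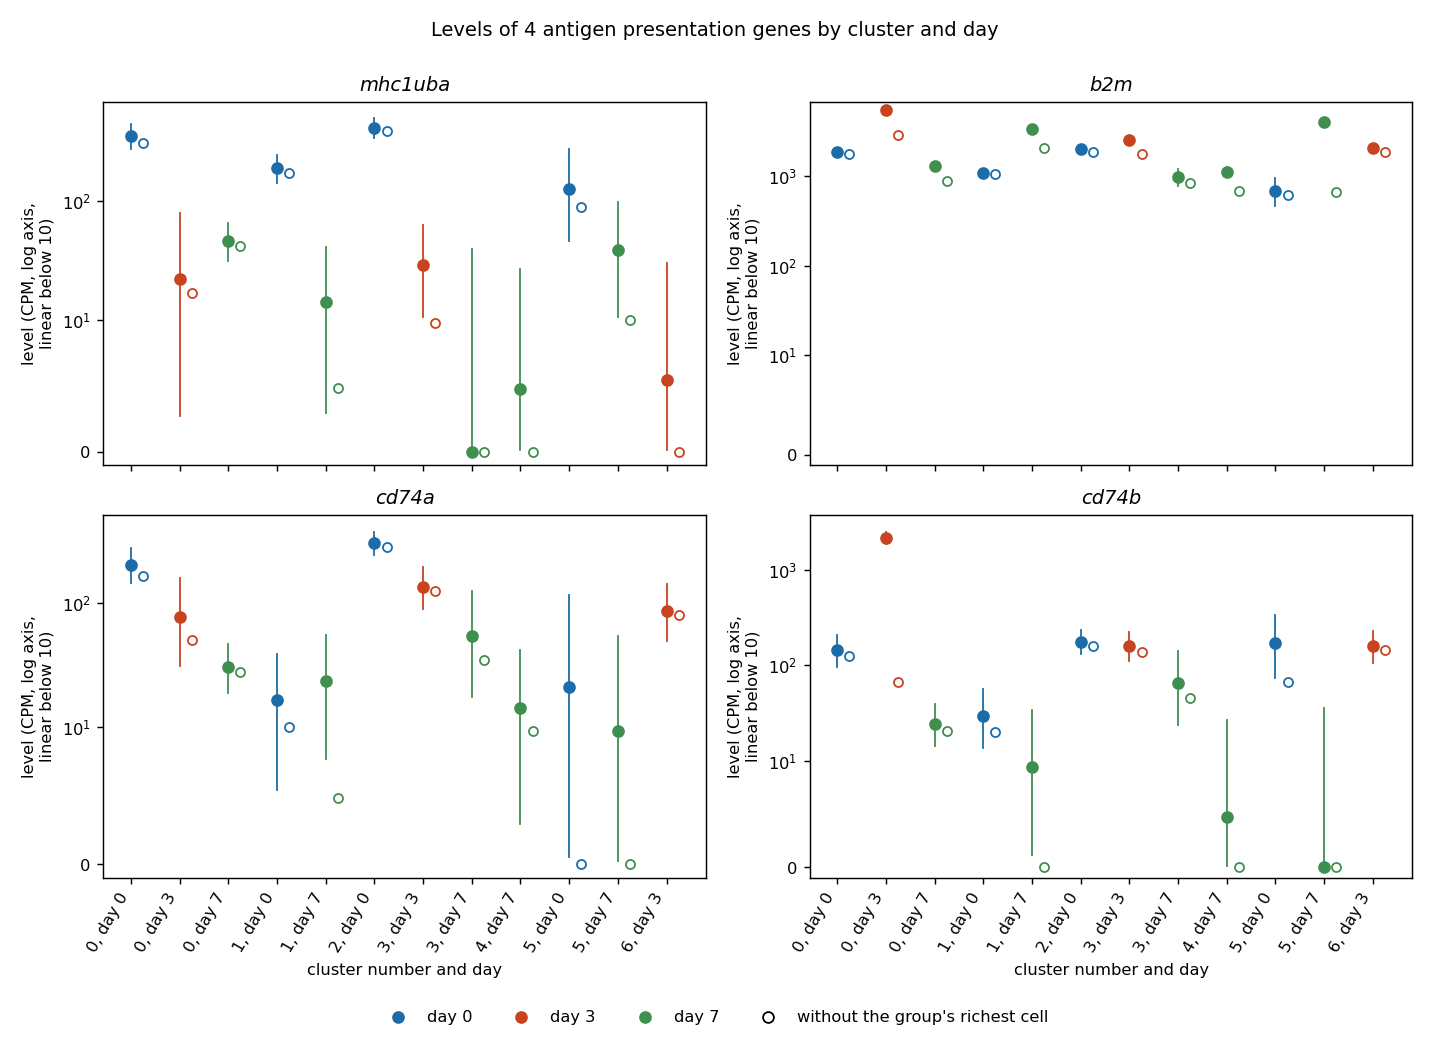
Level of each gene (CPM, log axis that is linear below 10) in the cluster and day groups with at least 10 cells; bars are 95% Poisson intervals and open points leave out the richest cell of that gene in the group. The mhc1uba points of day 0 in clusters 0, 1 and 2 lie at 189 to 418 CPM and all points of day 3 and day 7 at or below 46.4 CPM, and the cd74b point of cluster 0 at day 3 drops from 2152 to 67.2 CPM without 1 cell.

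Beta-2 microglobulin was detected in most cells on every day, and its group levels depended on a few cells. The endothelial-like level of b2m was 1907 CPM at day 0 (1789 to 2031), 2892.5 CPM at day 3 (2744 to 3047) and 1215 CPM at day 7 (1141 to 1292), with log2 ratios to day 0 of 0.60 and −0.65. A UMI was found in 161 of 166, 109 of 113 and 194 of 224 endothelial-like cells, and in 90.4%, 89.4% and 74.1% after thinning. The median cell of the class had 5, 4 and 2 UMIs on the 3 days, so the day with the highest level was not the day with the highest median.

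In 7 of the 754 cells b2m had 100 or more UMIs, a limit chosen after the values were seen. These 7 cells held 1733 of its 5113 UMIs, 33.9%, and none of them came from day 0. The richest was a day 7 cell of cluster 5 with 346 UMIs, 83.98% of the b2m of all day 7 cardiomyocyte-like cells. Without the 7 cells the endothelial-like level was 1907 CPM at day 0, 1734 CPM at day 3 and 881 CPM at day 7, so the day 3 log2 ratio changed sign, from 0.60 to −0.14, and the day 7 ratio went from −0.65 to −1.11.

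Mural-like cells gave b2m levels of 1090.2 CPM at day 0 (975 to 1215) and 3339.5 CPM at day 7 (3098 to 3595), 3.06-fold higher (2.68 to 3.50). The richest 2 of the 61 day 7 cells, with 281 and 184 UMIs, held 65.7% of it. Without them the day 7 level was 1178.5 CPM, and the median mural-like cell had 3 UMIs on both days. Cardiomyocyte-like cells were at 676 CPM at day 0 and 4004 CPM at day 7, and at 671 CPM at day 7 without the richest cell. Fibroblast-like cells of day 7 were at 1114 CPM, and at 686 CPM without the richest cell, which had 92 of 233 UMIs. At day 0, where no cell reached 100 UMIs, b2m was 1.75-fold higher in endothelial-like than in mural-like cells (1.54 to 1.99) and 2.82-fold higher than in cardiomyocyte-like cells (1.98 to 4.14).

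**Figure D2:**
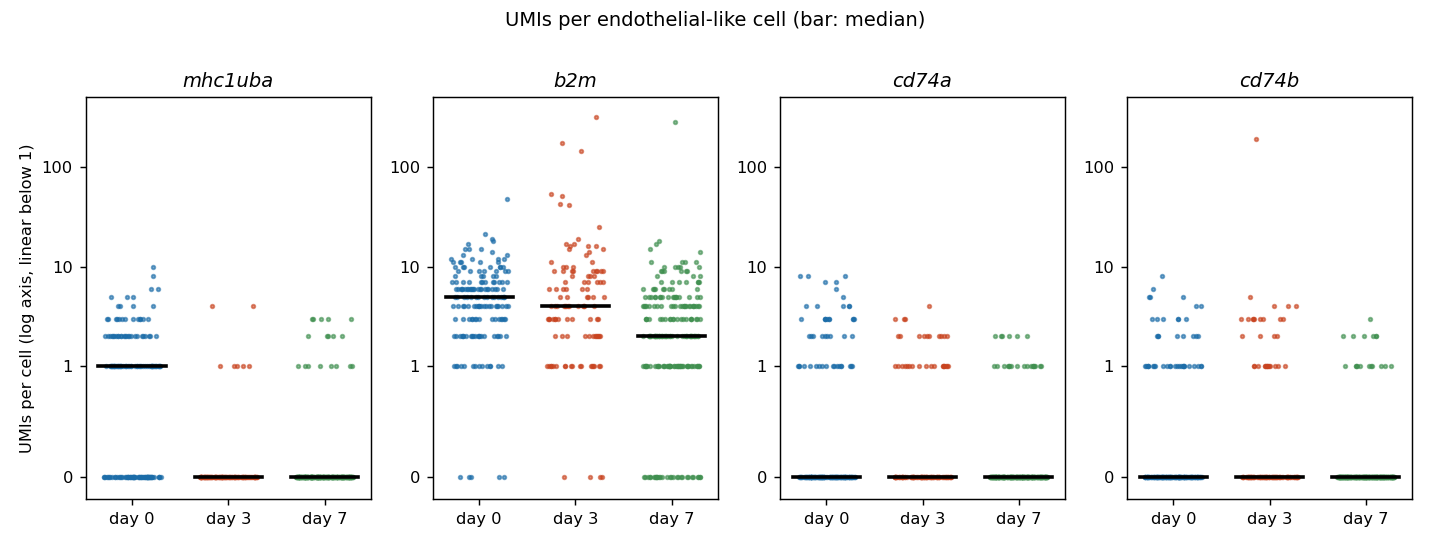
UMIs of each gene in every endothelial-like cell (log axis, linear below 1) at day 0 (166 cells), day 3 (113) and day 7 (224); black bars are medians. The b2m medians are 5, 4 and 2 UMIs while single cells of day 3 and day 7 reach 321 and 283, and 1 day 3 cell holds 191 cd74b UMIs when no other exceeds 8.

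The invariant chain gene cd74a was largely a transcript of the endothelial-like cells, and its level was lower on each later day. In that class cd74a was at 265 CPM at day 0 (222 to 314, 135 UMIs), 104 CPM at day 3 (77.6 to 137, 51 UMIs) and 34.9 CPM at day 7 (23.4 to 50.1, 29 UMIs). None of the 3 intervals overlapped. The level was 2.54-fold lower at day 3 (1.83 to 3.58) and 7.60-fold lower at day 7 (5.06 to 11.8), log2 ratios of −1.27 and −2.62. No cell had more than 8 of its 230 UMIs, and without the richest cell of each day the log2 ratios were −1.22 and −2.62.

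The share of endothelial-like cells with a cd74a UMI was 29.5% at day 0, 28.3% at day 3 and 10.3% at day 7, at median depths of 2587, 3215 and 3046 UMIs. Thinned to 2000 UMIs it was 27.1% (20.5 to 34.5), 15.9% (9.72 to 24.0) and 6.25% (3.46 to 10.3). In mural-like cells, taken as a measure of background, the share at day 0 was 4.55% at a median of 2950.5 UMIs. At day 7 the thinned share was 3.28% in mural-like cells (0.40 to 11.3) and 3.77% in fibroblast-like cells (0.46 to 13.0), and both intervals overlapped that of the endothelial-like cells. Day 7 levels were 34.9 CPM in endothelial-like, 23.6 CPM in mural-like and 14.3 CPM in fibroblast-like cells. The ratios to the mural-like and fibroblast-like levels, 1.48 (0.566 to 4.90) and 2.43 (0.754 to 12.5), had intervals that included 1. By these intervals the few day 7 cd74a UMIs of the endothelium were not set apart from such a background. However, 1 mural-like cell held 4 of the 5 UMIs of its class. Without the richest cell of each class the levels were 32.6, 4.82 and 9.70 CPM. At day 0 the endothelial-like level was 16.0-fold above the mural-like one of 16.6 CPM (6.67 to 49.9). Within day 0, cluster 2 was at 308 CPM and cluster 0 at 205 CPM, a ratio of 1.5 (1.02 to 2.24), and cluster 0 alone went from 205 CPM at day 0 to 30.4 CPM at day 7.

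The second invariant chain gene, cd74b, was lower at day 7 than at day 0 in the endothelial-like cells, and 1 cell decided its day 3 level. The endothelial-like level was 189 CPM at day 0 (153 to 230, 96 UMIs), 525 CPM at day 3 (463 to 594, 257 UMIs) and 31.3 CPM at day 7 (20.4 to 45.8, 26 UMIs). At day 7 it was 6.03-fold below day 0 (3.87 to 9.69), log2 ratio −2.27, and −2.29 without the richest cells. At day 3 it was 2.79-fold above day 0 (2.2 to 3.56), log2 ratio 1.43. A single day 3 cell of cluster 0 held 191 of the 257 day 3 UMIs and 47.9% of all 399 cd74b UMIs of the table. Without it the day 3 level was 144 CPM and the log2 ratio to day 0, with the richest day 0 cell left out too, was −0.26.

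That cell was the deepest of its library, with 31129 UMIs and 2284 genes. It also held 321 b2m UMIs, 4 cd74a UMIs and 1 mhc1uba UMI, 145 UMIs of 15 endothelial markers, 4 UMIs of macrophage markers (grn1 and lygl1) and 57 of srgn, a proteoglycan gene of secretory granules that was on the neutrophil list. In the whole table srgn had a UMI in 548 cells, and in endothelial-like cells it had 972, 799 and 942 UMIs on the 3 days. It was thus not particular to this cell. The cd74b of the cell made up 6136 CPM of its own transcripts. Whether it was 1 cell or a doublet was not tested.

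The share of endothelial-like cells with a cd74b UMI was 27.7%, 28.3% and 8.04% on the 3 days, and 24.7%, 23.0% and 5.36% after thinning. The thinned day 0 and day 3 shares lay within each other's intervals (18.3 to 32.0 and 15.6 to 31.9). Day 0 mural-like cells were at 29.9 CPM, 6.30-fold below the endothelial-like cells (3.18 to 14.2). Day 0 cardiomyocyte-like cells had 169 CPM from 8 UMIs, 5 of them in 1 cell, and the ratio of the endothelial-like level to theirs was 1.11 (0.544 to 2.66), against 12.5 for cd74a (2.21 to 499), which had 1 UMI there. Day 7 cardiomyocyte-like cells had no cd74b UMI in 30 cells, which at this depth allows a share of cells with a UMI of up to 11.6% (the upper Clopper-Pearson bound), or 10.0% by the limit of 3 cells. In the 2 large endothelial-like clusters of day 3 the levels were 160 CPM in cluster 3 and 159 CPM in cluster 6, a ratio of 0.993 (0.582 to 1.69).

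At day 0 cd74b was found more often in cells with cd74a than in cells without it. On that day, 30 of the 49 endothelial-like cells with cd74a had a cd74b UMI (61.2%, 46.2 to 74.8), against 16 of the 117 cells without cd74a (13.7%, 8.02 to 21.3), at median depths of 2772 and 2562 UMIs. After thinning the shares were 53.3% and 14.0%. At day 3 cd74b was found in 16 of the 32 cells with cd74a and 16 of the 81 without, and after thinning in 7 of 18 and 19 of 95, where the intervals overlapped. At day 7 it was found in 5 of 23 and 13 of 201 cells, and after thinning in 2 of 14 and 10 of 210, and the intervals overlapped in both. The class I heavy chain showed less of this: 34.3% of day 0 cells with mhc1uba had cd74a (25.2 to 44.4), against 21.9% of those without (12.5 to 34.0), with overlapping intervals.

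**Figure D3:**
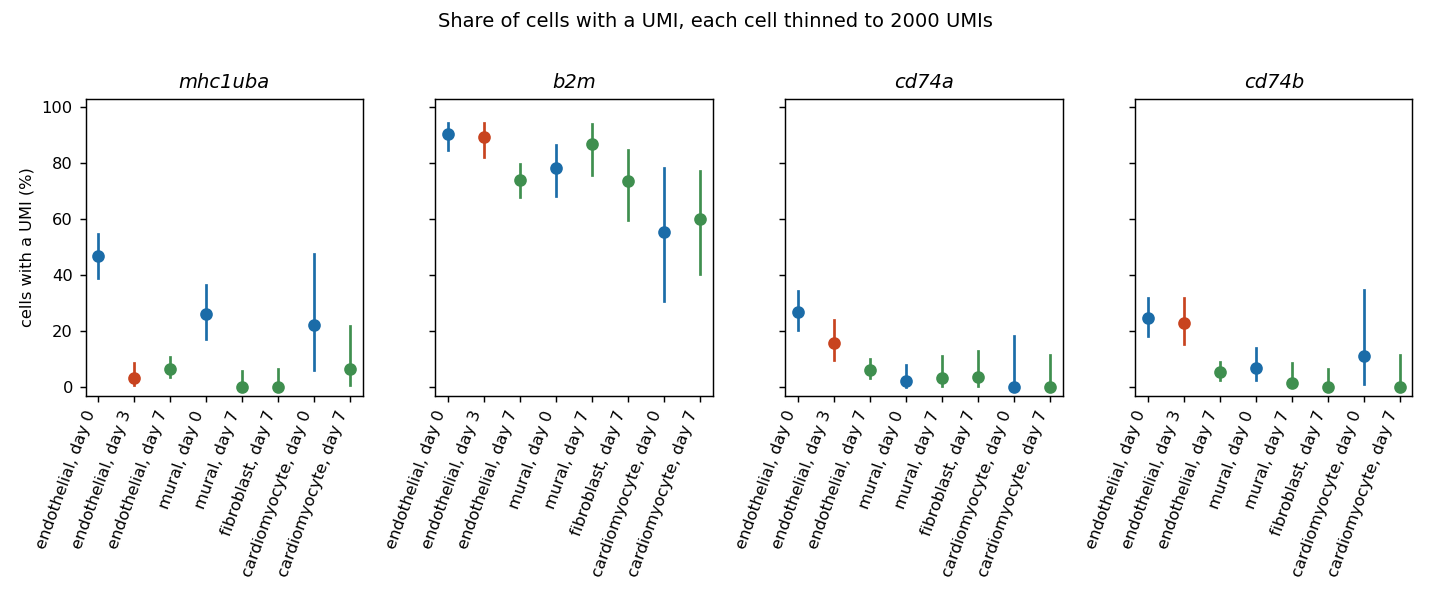
Share of cells with at least 1 UMI of each gene, by class and day, after thinning every cell to 2000 UMIs; bars are exact 95% Clopper-Pearson intervals. For mhc1uba the share is 47.0% in day 0 endothelial-like cells and at most 6.70% in every group of day 3 and day 7, and for cd74a and cd74b only the day 0 and day 3 endothelial-like groups exceed 15%.

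Because macrophages and dendritic cells carry much CD74, their markers were counted in the endothelial-like cells. Of the 15 macrophage markers 5 were detected at day 0, 12 at day 3 and 11 at day 7, and they summed to 74.6, 358 and 348 CPM. The complement genes c1qb and c1qc had 1, 6 and 6 and 0, 6 and 3 UMIs. Most of the sum was the granulin genes grn1 and grn2 and the lysozyme gene lygl1, which other cells also express. The macrophage marker mpeg1.1 had 0, 1 and 1 UMIs, mpeg1.2 0, 2 and 0 and mfap4 0, 5 and 0. Of the leukocyte markers, ptprc had 0, 0 and 1, rac2 4, 5 and 5, coro1a 0, 2 and 0 and wasb 1, 0 and 1. The T or NK cell marker ccr9a had 0, 3 and 0, all in 1 cell. No UMI was found of cybb and the B cell markers in the table. Some listed B cell and leukocyte markers, among them ighm and lcp1, were not in the table and so were not measured. Of the 5 dendritic cell markers 2 were detected on each day, and they summed to 49.1, 190.1 and 28.9 CPM. Most of this was id2a, with 20, 87 and 23 UMIs, and zbtb46 had 5, 6 and 1, while flt3, batf3 and xcr1a.1 had none. Over all cells id2a had 136, 93 and 330 UMIs, so at day 0 and day 7 most of its UMIs lay outside this class. Macrophage markers other than grn1, grn2 and lygl1 were found in 2 of 166, 21 of 113 and 8 of 224 cells. These counts were not corrected for depth, and at day 3 the cells with such a marker had a median of 4657 UMIs and those without 2949.5. The 21 day 3 cells held 20.3% of the class's UMIs, 9 of the 51 cd74a UMIs and 13 of the 257 cd74b UMIs. This gave 90.4 CPM of cd74a in them and 108 CPM in the rest. The cell with 191 cd74b UMIs was not 1 of the 21, and without it they held 13 of 66 cd74b UMIs. Any macrophage or leukocyte marker, grn1, grn2 and lygl1 included, was found in 55 of the 113 day 3 cells, which held 58.3% of the UMIs, 38 of the 51 cd74a UMIs and 233 of the 257 cd74b UMIs. The cell with 191 cd74b UMIs is 1 of these 55, and without it the other 54 held 55.4% of the UMIs, 34 of 47 cd74a UMIs and 42 of 66 cd74b UMIs. In the 55 cells cd74a was at 133 CPM and in the others at 63.7 CPM. At day 0 cd74a was lower in cells with such a marker than in the rest, at 148.69 against 298.8 CPM, from 17 of 135 UMIs. At day 7 it was at 29.64 against 36.98 CPM, from 7 of 29 UMIs in marker cells that held 28.4% of the class's UMIs. For cd74b the levels in marker cells and the rest were 157 against 198 CPM at day 0. At day 7 they were 42.3 against 26.9 CPM, with 10 of 26 UMIs in the marker cells. No interval was computed for these differences between marker cells and the rest. The 8 day 7 cells with a macrophage marker other than grn1, grn2 and lygl1 held 6 of the 26 cd74b UMIs, 143 CPM against 25.3 CPM in the rest. Leaving the cells with any macrophage or leukocyte marker out on each day put the log2 ratios to day 0 at −2.07 for cd74a and −0.70 for cd74b at day 3. For cd74a this moved both sides, as the day 0 level rose from 265.1 to 298.8 CPM. For mhc1uba the day 3 ratio became −2.72, from 379.8 CPM at day 0 and 49.0 CPM at day 3 outside the marker cells. The 55 day 3 marker cells had 10.5 CPM of mhc1uba, from 3 of its 13 UMIs. The day 7 ratio of mhc1uba was −3.05 in this setting. The part of the marker cells in the day 3 and day 7 levels was not tested.

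Read together in the endothelial-like class, 3 of the 4 genes were 2-fold or more lower at day 7 than at day 0, where 11.8% of measured genes were. The gene b2m was not, at a log2 ratio of −0.65, but it was at −1.05 without the richest cell of each day. At day 3, 2 of the 4 genes were 2-fold or more lower, where 15.2% of measured genes were, and cd74b was higher by that fold, where 13.6% were. The members were chosen on these contrasts, so nothing is read from the counts, and both contrasts share the day 0 cells. Between day 3 and day 7, b2m, cd74a and cd74b were at log2 ratios of −1.24, −1.35 and −3.70, the last −2.02 without the richest cell of each day, and mhc1uba was at 0.44, a 1.49-fold ratio with an interval that included 1 (0.766 to 3.09). In that comparison 13.5% of measured genes were 2-fold or more lower.

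**Figure D4:**
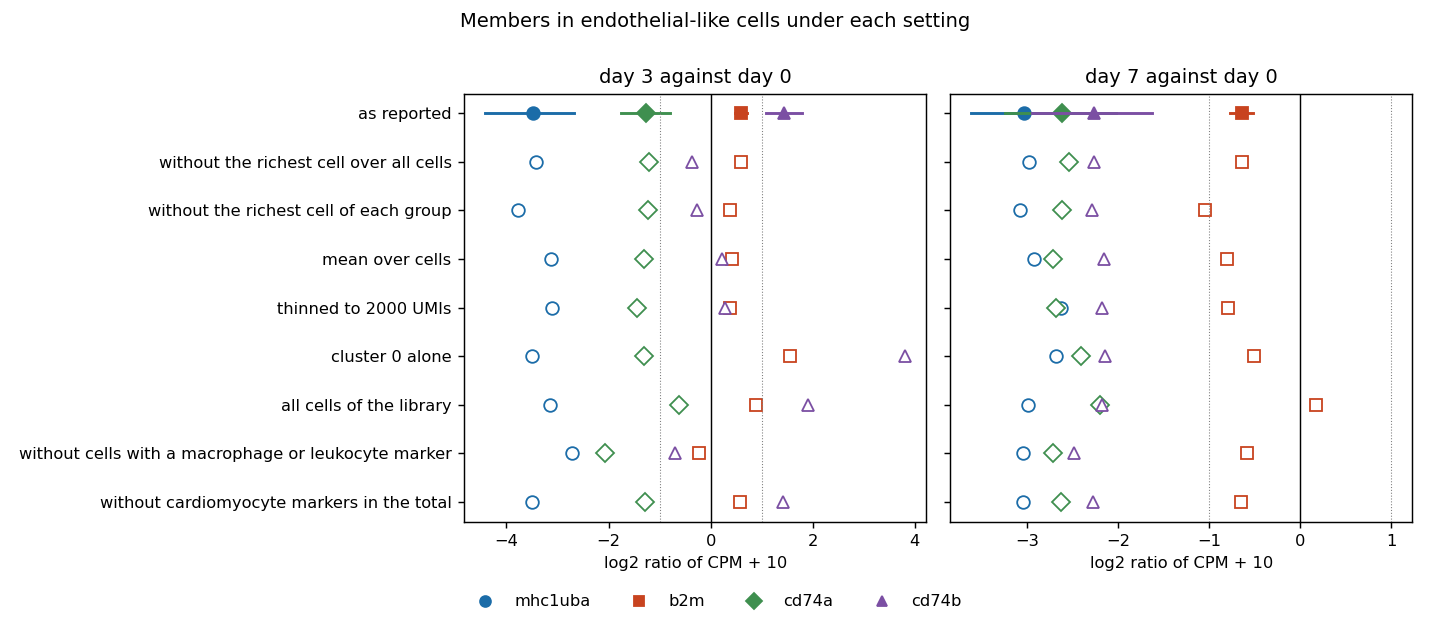
Log2 ratio of CPM + 10 of each gene in endothelial-like cells against day 0, as reported (filled, with the interval of the plain ratio centred on it) and under each other setting (open); dotted lines mark 2-fold. The mhc1uba and cd74a points stay below 0 under all 9 settings on both days, and the cd74b point of day 3 crosses 0 when the richest cell is left out.

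Lists of 115 other genes covered the rest of the antigen presentation machinery, MHC regulators, interferon genes, and MIF and CD74 partners. Of these, 77 were in the table, and 25 were measured in endothelial-like cells at day 3 and 26 at day 7. The regulator, interferon and MIF lists gave 3, 5 and 2 of the genes measured at day 3, and 3, 6 and 2 at day 7. At day 3, 14 of the 25 were higher and 11 lower than at day 0, 3 and 2 of them by 2-fold or more. Their median log2 ratio was 0.16, against −0.04 over all measured genes. At day 7, 8 were higher and 18 lower, 2 and 3 of them by 2-fold or more, with a median of −0.31 against −0.13. Among all measured genes 8.57% were 2-fold or more higher at day 7, and the other shares stand above.

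Of the other class I genes, mhc1zba, a Z-lineage heavy chain, was at 760.0 CPM at day 0, 507 CPM at day 3 and 445 CPM at day 7 in endothelial-like cells. The day 7 log2 ratio was −0.76, against −3.04 for mhc1uba. In mural-like cells it was higher at day 7, at 363 CPM against 126 CPM, where mhc1uba was lower. The b2m paralog b2ml was at 793, 523 and 1060 CPM, and its richest day 7 cell held 185 of 881 UMIs. Reads shared between b2m and b2ml, or between class I heavy chains, could be split or dropped in the authors' counting, so these values are uncertain to that degree. In the RefSeq annotation of the assembly GRCz12tu, mhc1uba lies between the tapasin and class I genes tapbp.1, mhc1uka and tapbp.2 on one side and the immunoproteasome genes psmb13a, psmb8a, psmb12 and psmb9a on the other. Of these neighbours mhc1uka and psmb9a were in the table. The gene mhc1uka had 14 UMIs in all cells, and psmb9a was at 31.4, 36.8 and 13.2 CPM in endothelial-like cells, a log2 ratio of −0.83 at day 7.

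The proteasome activator genes psme1 and psme2 were at 45.2 and 51.1 CPM at day 0, 73.6 and 75.6 CPM at day 3 and 28.9 and 56.5 CPM at day 7, all within 2-fold of day 0. The loading chaperone gene pdia3 was at 420 CPM at day 0, 198 CPM at day 3 and 188 CPM at day 7, but 76 of its 214 day 0 UMIs lay in 1 cell, and the log2 ratios of −1.05 and −1.12 were −0.44 and −0.65 without the richest cells.

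Of the class II processing genes, mostly lysosomal proteases that trim the invariant chain and make class II peptides, 7 were measured at day 3. There 5 of them were higher than at day 0, 3 by 2-fold or more, where 13.6% of all measured genes were, and 2 were lower, 1 by that fold. At day 7, 7 were measured as well, and 2 were higher than at day 0, 0 of them by 2-fold or more. The other 5 were lower, 1 by that fold, where 11.8% of all measured genes were. The cathepsin L gene ctsla was at 78.5 CPM at day 0, 814 CPM at day 3 and 150.4 CPM at day 7, 10.4-fold higher at day 3 and 1.91-fold higher at day 7, and at a log2 ratio of 3.09 at day 3 without the richest cells. The cathepsin S gene ctssb.1 was at 13.7, 42.9 and 22.9 CPM, from only 7, 21 and 19 UMIs. The cathepsin B gene ctsba was at 35.3, 83.8 and 30.1 CPM. The day 3 log2 ratio of ctsba, 1.05, was 0.98 without the richest cells, and those of ctsd and lgmn, 0.38 and 0.33, were −0.41 and −0.14. The cathepsin S paralog ctssb.2 was at 60.9, 45.0 and 27.7 CPM. The thiol reductase gene ifi30, which opens disulfide bonds of antigens, was at 283, 75.6 and 43.3 CPM, with 118 of its 144 day 0 UMIs in 1 cell. Without the richest cells its log2 ratios of −1.77 and −2.46 became 0.38 and −0.34.

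Few of the class II chains themselves could be looked up. Of the 11 class II genes listed besides cd74a and cd74b, 2 were in the table under the names searched. The others had no row by those names and were not measured, so the level of class II chains as a whole is not known. The summed UMIs of the 2 over all cells were 8, and the endothelial-like cells had 13.7 CPM of them at day 0 and none later. The class II transactivator gene ciita had 1 UMI. The interferon-induced gene isg15 was at 64.8, 73.6 and 19.3 CPM, a log2 ratio of −1.35 at day 7 that was −1.32 without the richest cells. The transcription factor gene stat1a was at 45.2, 40.9 and 26.5 CPM, irf1b at 56.9, 92.0 and 39.7 CPM, and the kinase gene jak1 at 9.82 CPM at day 0 and 32.5 CPM at day 7. The CD74 ligand genes mif and ddt were at 155 and 134 CPM at day 0. A single day 3 cell held 71 of 154 mif UMIs and a single day 7 cell 340 of 422 ddt UMIs, and the log2 ratios of 0.98 for mif at day 3 and 1.85 for ddt at day 7 were 0.19 and −0.33 without the richest cells.

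**Figure D5:**
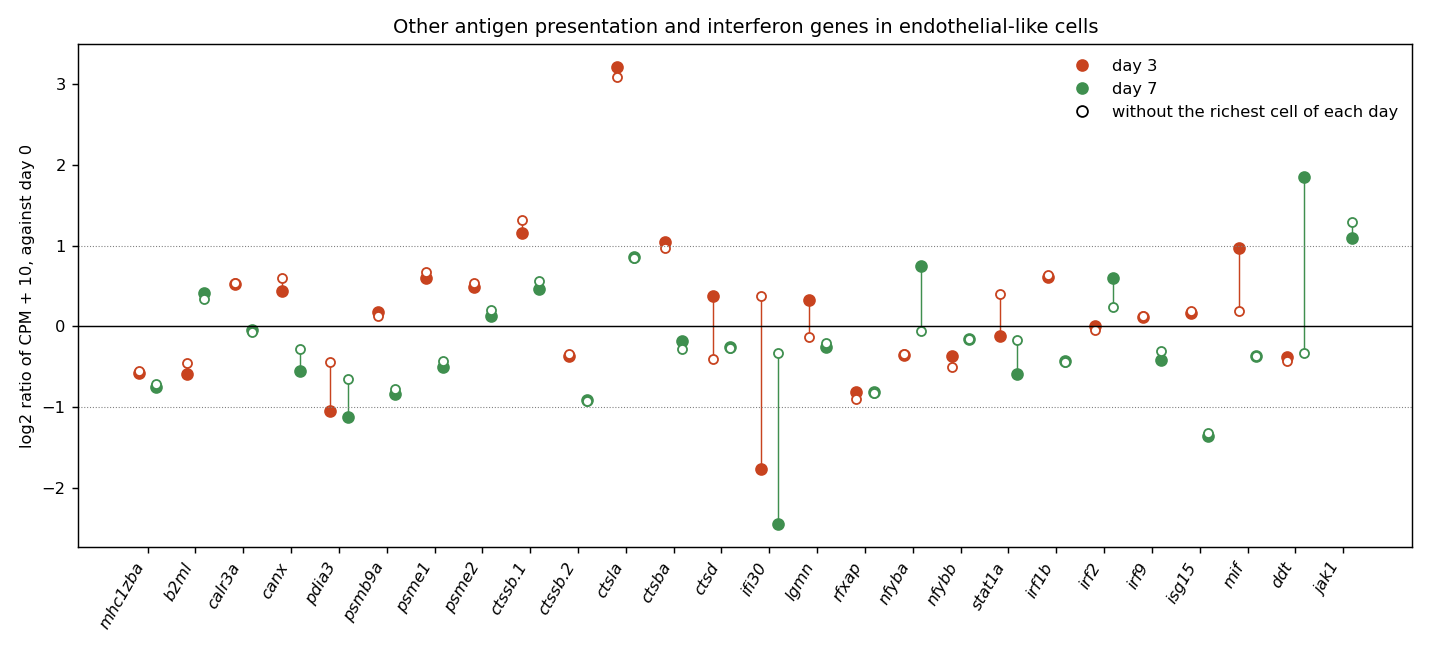
Log2 ratio of CPM + 10 against day 0 for each measured gene of the other antigen presentation and interferon lists in endothelial-like cells, at day 3 and day 7; open points leave out the richest cell of each day and dotted lines mark 2-fold. The ctsla point of day 3 stands highest at 3.22 and moves little, while ifi30 and ddt move by over 2 log2 units when 1 cell per day is left out.

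Across the 12 cluster and day groups with at least 10 cells, the patterns of the 4 genes were compared with those of 1697 genes that had at least 100 UMIs, by Pearson's r of log2 CPM + 10. The groups share libraries, depth and composition, so r is a description. For cd74a the 3 most alike genes were lrrc15 (r = 0.89), egfl7 (0.86), an endothelial gene, and si:zfos-2070c2.4 (0.86), and leaving out the richest cell of each group gave 0.89, 0.85 and 0.87. For mhc1uba they were mt-nd4 (0.81), rap2c (0.80) and mt-cyb (0.79), with mt-nd4 and mt-cyb encoded by the mitochondrial genome. For b2m they were ywhaba (0.87), metap2b (0.72) and rpl22l1 (0.68), and for cd74b SPINK2 (0.87), rpl39 (0.85) and rps14 (0.81). Without the richest cells r was 0.49, 0.50 and 0.44 for the genes like b2m and 0.67, 0.64 and 0.33 for those like cd74b. The gene most like cd74b was then fli1a (0.90), an endothelial transcription factor, and that most like b2m was cyp3c1 (0.86). For cd74a it was si:ch211-79k12.1 (0.91), with lrrc15 and egfl7 at ranks 7 and 18. For mhc1uba it was rap2c (0.85), with mt-cyb and mt-nd4 at ranks 6 and 7. Between members, cd74a and cd74b had r = 0.64, and 0.80 without the richest cells, and mhc1uba and b2m had −0.13 and 0.10.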

How the data were processed

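The deposited expression table held natural log values of 26320 genes in 754 cells, and a second deposited table gave each cell's counts of UMIs and detected genes, day, cluster and a mitochondrial percent that was 0 in every deposited cell and not used. That percent did not match the counts, as mt-nd4 and mt-cyb had 5548 and 8543 UMIs. The mitochondrial share of the cells was not compared between the days. Cell Ranger and GRCz10 are named in the submitters' processing notes (version not given in the sources used here). Reversing the logarithm, scaled to 10000 per cell, gave whole UMIs within 0.001 for all 497895 values above 0, and totals equal to the deposited counts in 754 of 754 cells. The labels state a recovery of 141 cells at day 3, and the deposited table held 114. No doublet caller was run.

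UMIs were summed per group. Poisson, ratio and Clopper-Pearson intervals were computed at 95% with scipy 1.17.1 in Python 3.11.15, a pseudocount of 10 CPM, a minimum of 20 UMIs over both groups and a fold of 2. Cells were thinned to 2000 UMIs with a fixed seed. With 1 library per day no test was run. The ratio and its interval were tested on simulated independent Poisson counts, which is the model that the interval assumes. The simulation held no single cells of very high counts, so it says nothing of the intervals where such cells occur. The members, lists and alternatives were chosen with earlier results of these data known. Named genes were the members, list genes with at least 20 UMIs over all cells, those past 2-fold first, the 3 genes most alike to each member and markers. Genes with fewer UMIs (mhc1uka and ciita) were named after their values were seen.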

Additional observations from a re-analysis of the deposited data

Results flagged for a closer look

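The b2m level moved in opposite directions in different cell classes between day 0 and day 7. The log2 ratio was 1.61 in mural-like cells and −0.65 in endothelial-like cells, a difference of 2.25, and 2.55 in cardiomyocyte-like cells, a difference of 3.19 from the endothelial-like ones. Neither difference was tested, since each day had 1 library. Without the richest cell of each group the mural-like ratio was 0.94 and the cardiomyocyte-like ratio 0.14, and without the cells of 100 or more b2m UMIs the day 7 levels were 1178.5 and 671 CPM, against 1090.2 and 676 CPM at day 0.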

How the results depend on the processing

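No paired analysis was possible because each day had 1 library, and for the same reason no replicate could be left out. Of 110 recomputed main values 73 stayed within their interval or, for counts, within 1.5 times, 33 moved beyond it and 4, all of cd74b at day 3, went from 2-fold higher to below 0. In all, 7 log2 ratios of the members changed sign, 4 of cd74b and 3 of b2m. All log2 ratios here are against day 0 in the endothelial-like class unless said. A pseudocount of 50 CPM gave mhc1uba −2.55 (day 3) and −2.32 (day 7), and at day 7 cd74a −1.89 and cd74b −1.55. For cd74b at day 3 the ratio reversed to −0.37 without the richest cell over all cells, −0.26 without that of each day, −0.70 without cells with a macrophage or leukocyte marker and −0.37 without erythroid-rich cells and the deepest cell of each day. It was 0.23 as a mean over cells, 0.29 thinned, 3.82 in cluster 0 alone and 1.90 over all cells. For b2m at day 3 it was 0.38 without the richest cells, 0.41 as a mean over cells, 0.38 thinned, 1.56 in cluster 0, 0.88 over all cells and 0.32 without those erythroid-rich and deepest cells, and it changed sign to −0.22 without marker cells and −0.14 without cells of 100 or more b2m UMIs, an alternative added after seeing the data. In cluster 0, 2 of the 16 day 3 cells held 466 of 492 b2m UMIs, and without them the level was 453 CPM, against 1835 CPM at day 0. For b2m at day 7 it was −1.05 without the richest cells, −0.80 both as a mean over cells and thinned, −0.51 in cluster 0 and −1.11 without cells of 100 or more b2m UMIs, and 0.17 over all cells, where the mix of classes also differs. For cd74a at day 3 it was −0.62 over all cells and −2.07 without marker cells. Of the listed pathway genes, those 2-fold lower at day 3 numbered 0 without the richest cells and 1 as a mean over cells instead of 2, and those higher 6 with a minimum of 1 UMI instead of 3. At day 7 those lower numbered 6 with a minimum of 1 UMI, 5 with a pseudocount of 1 CPM and 1 without the richest cells instead of 3, and those higher 1 instead of 2 with a minimum of 50 UMIs, without the richest cells or as a mean over cells. Depth limits the low groups: 3 UMIs equal 6.13 CPM in day 3 endothelial-like cells and 29.2 CPM in day 7 cardiomyocyte-like cells. The causes of these shifts were not tested.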
